A study of Mus musculus with 6 samples.

Results

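The genes described here are 39 type I interferon response genes, measured by RNA sequencing in lung endothelial cells, which line the blood vessels of the lung, sorted from mice labelled wild type (WT) or knockout (KO) for Dnmt3a, which encodes a DNA methyltransferase. They were taken by name from a list of well-known interferon-induced genes. All 39 were among the 24520 genes of the deposited tables, and all 39 were among the 14667 genes with enough counts to be tested. There were 3 libraries per label. The labels give tissue, cell type and genotype for each library and nothing on the allele, the driver of any Cre, the strain, the age, the sex or a treatment, and no source states that each library is a separate animal. The p-values therefore reflect only how these samples vary, and that variation may be technical. No interferon treatment or infection is named for any library.

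Type I interferons are secreted proteins that nearly all cells make when they sense foreign nucleic acid. They bind a receptor of the subunits Ifnar1 and Ifnar2, whose kinases Jak1 and Tyk2 phosphorylate transcription factors such as Stat2. With Irf9, Stat2 is part of a complex that binds the interferon-stimulated response element (ISRE) in promoters and switches on genes whose products block virus entry, degrade viral RNA or stop translation. Endothelial cells carry this receptor and hold some of these genes at a basal level without infection.

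Promoters of 6 of the genes are shown first, because they hold letters of the elements through which interferons act: 4 genes whose KO and WT libraries did not overlap (Ifit3, Ifit3b, Trim30a and Irf1) and 2 well-known targets whose libraries did (Ifit1 and Isg15). RefSeq promoters on GRCm38.p6, covering 250 bases before to 50 bases after a start site, were matched by symbol for 30 of the 39 genes; Usp18, Parp9, Parp14, Oas2, Mx1, Mx2, Dhx58, Rtp4 and Ifi27 had none. Both strands were searched for the ISRE core (GAAA, any 2 bases, GAAA) and for the gamma-activated site TTCNNNGAA, known from genes that interferon gamma induces; neighbouring matches may overlap. The ISRE core was found in at least 1 promoter of 15 of the 30 genes (50.0%), against 3.99% of the 27025 genes with a RefSeq promoter. The gamma-activated site was found in 8 of the 30 (26.7%), against 9.55%. These matches describe letters in a window of 300 bases and are not measured binding sites.

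The 250 bases before the start are printed 5′ to 3′ on the gene's strand, on GRCm38.p6, with the matches in capitals: the ISRE core in Ifit1 (chr19:34640639-34640888, plus), Ifit3 (chr19:34583279-34583528, plus), Ifit3b (chr19:34607707-34607956, plus), Isg15 (chr4:156200819-156201068, minus) and the upstream start of Trim30a (chr7:104465194-104465443, minus), and the gamma-activated site in Irf1 (chr11:53769764-53770013, plus).
Ifit1: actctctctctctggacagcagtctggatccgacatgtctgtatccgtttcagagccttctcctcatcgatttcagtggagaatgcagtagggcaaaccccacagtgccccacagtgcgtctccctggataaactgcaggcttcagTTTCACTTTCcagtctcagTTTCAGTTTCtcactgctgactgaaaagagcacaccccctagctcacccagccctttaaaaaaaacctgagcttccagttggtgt
Ifit3: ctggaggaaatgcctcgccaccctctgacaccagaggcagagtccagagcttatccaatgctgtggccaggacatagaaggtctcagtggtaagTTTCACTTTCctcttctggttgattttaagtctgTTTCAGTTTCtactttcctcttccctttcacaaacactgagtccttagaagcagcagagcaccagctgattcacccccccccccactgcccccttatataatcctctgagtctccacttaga
Ifit3b: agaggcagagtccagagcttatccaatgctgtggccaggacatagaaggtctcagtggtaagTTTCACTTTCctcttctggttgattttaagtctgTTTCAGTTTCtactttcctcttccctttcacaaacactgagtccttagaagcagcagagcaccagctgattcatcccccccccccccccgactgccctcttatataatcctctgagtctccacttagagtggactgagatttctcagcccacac
Isg15: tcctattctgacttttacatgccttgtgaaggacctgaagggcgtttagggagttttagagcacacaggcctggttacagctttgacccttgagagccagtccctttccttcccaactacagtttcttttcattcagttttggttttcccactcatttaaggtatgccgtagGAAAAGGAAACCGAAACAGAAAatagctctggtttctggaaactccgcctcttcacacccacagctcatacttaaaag
Trim30a: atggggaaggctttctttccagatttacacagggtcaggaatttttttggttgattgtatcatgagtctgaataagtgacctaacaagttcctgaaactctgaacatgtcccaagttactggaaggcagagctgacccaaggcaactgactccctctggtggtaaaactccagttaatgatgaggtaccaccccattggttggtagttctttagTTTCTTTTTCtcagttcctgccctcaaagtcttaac
Irf1: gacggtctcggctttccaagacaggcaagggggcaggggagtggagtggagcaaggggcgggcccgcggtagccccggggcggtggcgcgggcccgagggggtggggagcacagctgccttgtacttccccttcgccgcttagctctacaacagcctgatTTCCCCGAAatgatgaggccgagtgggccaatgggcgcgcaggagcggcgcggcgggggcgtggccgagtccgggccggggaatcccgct
In Ifit1 the first bases of the matches lay at positions -104 and -85 from the start, in Ifit3 at -156 and -122, and in Ifit3b at -188 and -154, with the same letters in all 3 genes. Isg15 held a run of 3 overlapping matches at -78, -72 and -66. The upstream start of Trim30a held its match at -36. Its other RefSeq promoter, not printed, held 1 match that began at position 3 after the start. Irf1 held the gamma-activated site at -90 and no ISRE core in either of its RefSeq promoters. Cmpk2, also without overlap, held neither motif in its window and is not shown.

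Each library held between 28136194 and 39999172 estimated counts. The floor of 3 counts per library equals 0.0796 to 0.102 CPM (counts scaled to library size with TMM factors) and covers counting error only. Pan-endothelial markers summed to 16376 to 20680 CPM in the WT libraries and 16275 to 19252 CPM in the KO libraries. The targeted gene ran against its labels: Dnmt3a (mm10 chromosome 12, 3806007 to 3914443, plus strand) had 1235, 1079 and 1198 counts in the libraries labelled WT but 5090, 4878 and 4750 counts in those labelled KO, a log2 fold change of 2.22 with SE 0.11 (edgeR's quasi-likelihood test, adjusted p = 0.00157). Which part of the gene the allele removes is not stated in the sources used here, so whether the counted transcript covers it was not tested. WT and KO below mean the libraries so labelled, and a direction is that of the labels. Exchanged labels would turn every direction given here; whether they were exchanged was not tested. Expression of Xist and Y-linked genes read replicate 1 as female and replicates 2 and 3 as male under each label.

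None of the 39 genes passed the threshold of 0.05 on the Benjamini-Hochberg adjusted p of edgeR's quasi-likelihood test, in a comparison that called 5 of 14667 genes (0.0341%). The smallest adjusted p among them was 0.243, for Trim30a. At an unadjusted p under 0.05, 6 of the 39 (15.4%) were higher in KO (Ifit3, Parp14, Oas2, Cmpk2, Irf1 and Trim30a) and 0 were lower, against 6.88% and 5.77% of all genes tested. DESeq2 called 2 of the 39 higher, Oas2 (adjusted p = 0.00169) and Trim30a (adjusted p = 0.0117), and 0 lower, where it called 2.78% of all genes, 1.47% higher and 1.31% lower. In 7 of the 39 (17.9%), the same 6 and Ifit3b, all 3 KO libraries lay above all 3 WT libraries, against 10.9% of all genes; in 0 of the 39 did they all lie below, against 9.42%. Separation in either direction was thus seen in 17.9% of the 39 and in 20.3% of all genes.

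Most fitted changes were small and positive. The median log2 fold change of the 39 genes, KO over WT, was 0.21, against 0.01 over all genes tested, and 32 of the 39 (82.1%) were positive, against 50.9%. KO replicate 2 carried much of this. It was the highest of the 6 libraries in 26 of the 39 genes (66.7%), against 21.0% of all genes tested. KO replicate 1 was the highest in 1, KO replicate 3 in 4, and WT replicates 1, 2 and 3 in 0, 2 and 6. Over all genes tested, KO replicates 1 and 3 were the highest in 14.4% and 19.0%. For WT replicates 1, 2 and 3 these shares were 12.7%, 12.9% and 20.0%. Over the 39 genes the median ratio of KO replicate 2 to the mean of the other 2 KO libraries was 1.35, and 34 of the 39 ratios were above 1; over all genes tested the median ratio was 0.986 and 48.1% were above 1. When KO replicate 2 was left out, the median log2 fold change was 0.07, against -0.01 over all genes, and 23 of the 39 (59.0%) were positive, against 49.0%. Under that setting 3 of the 39 had an unadjusted p under 0.05 by edgeR, 0 passed the adjusted threshold, and 13.3% of all genes tested had an unadjusted p under 0.05.

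**Figure D1:**
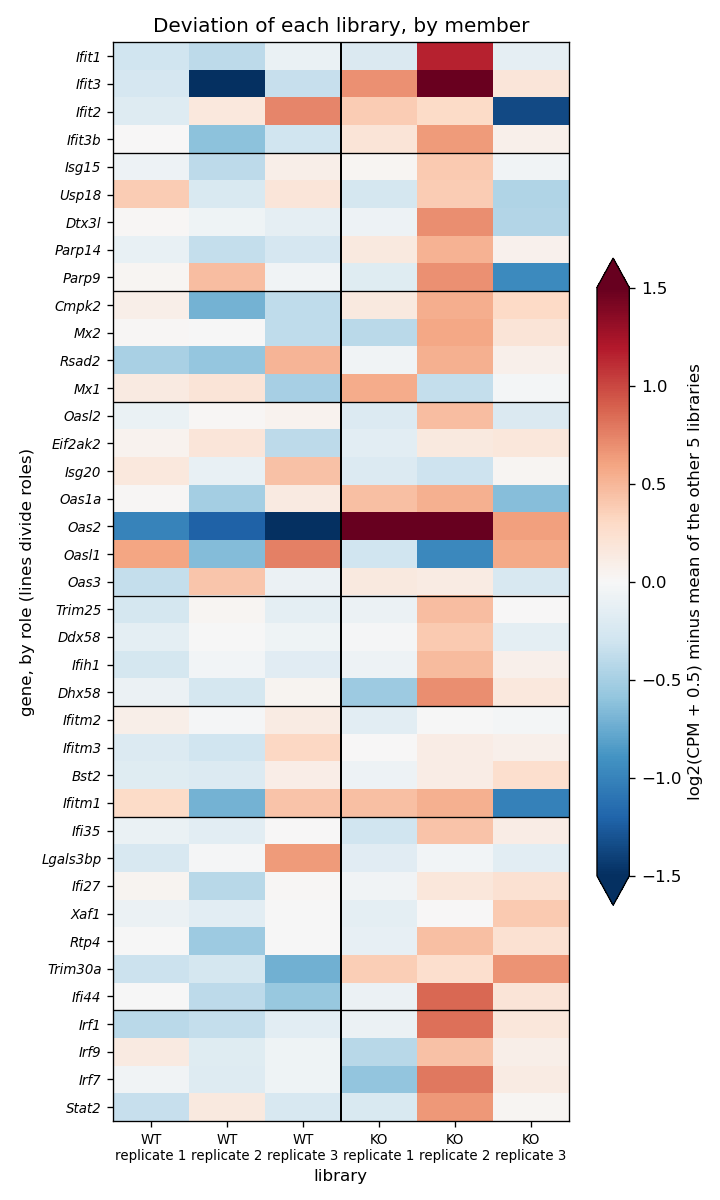
Colour shows, for each of the 39 genes (rows, grouped by role), how far each library (columns) lay from the mean of the other 5 on the log2(CPM + 0.5) scale, with red above and blue below; the scale stops at 1.5 either way. The column of KO replicate 2 is red in most rows, and the rows of Oas2, Ifit3 and Trim30a are blue in all 3 WT columns and red in all 3 KO columns.

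**Figure D2:**
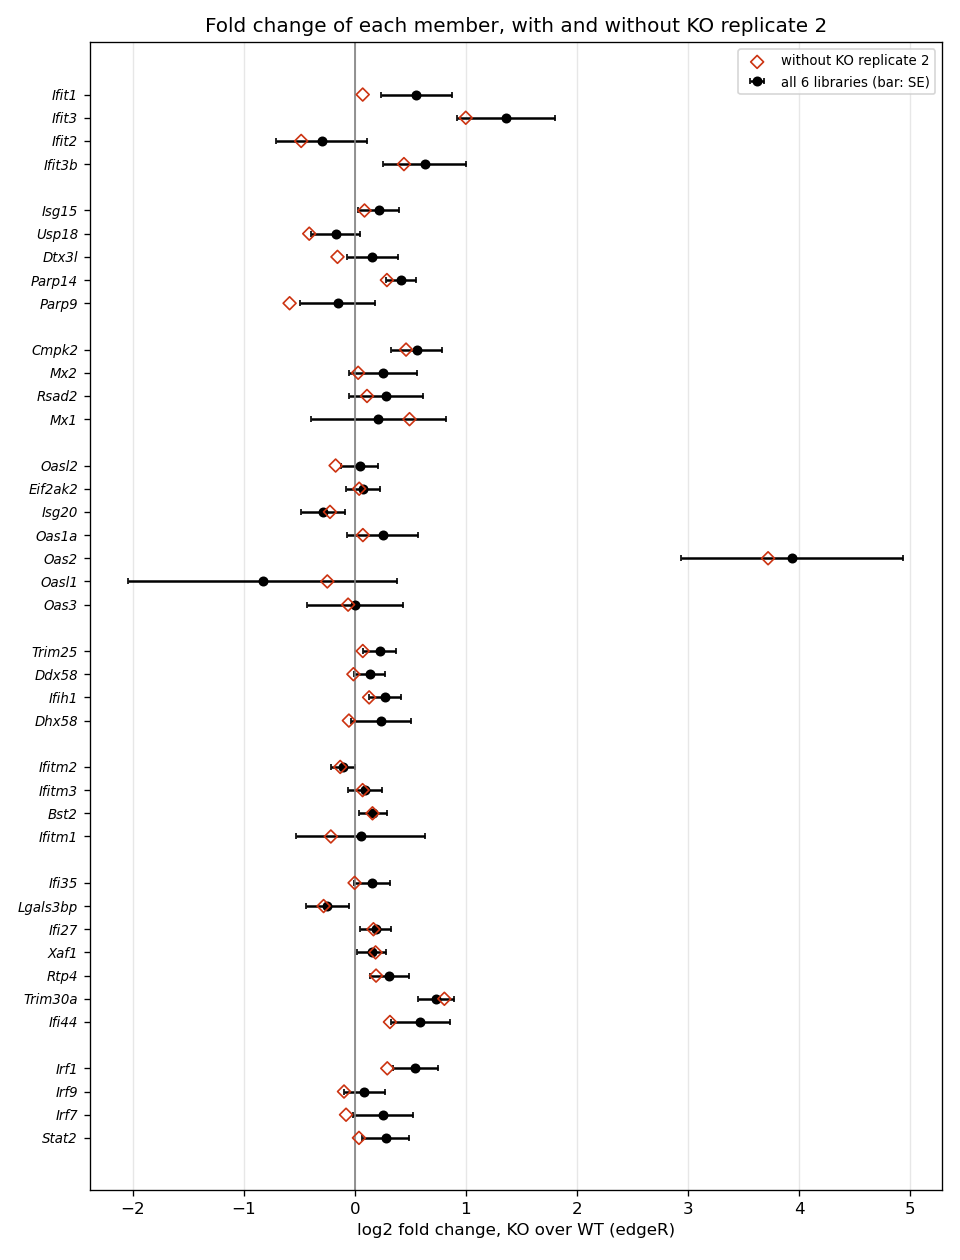
Black points are the edgeR log2 fold changes of KO over WT from all 6 libraries with bars of 1 SE, and open red diamonds are the values without KO replicate 2. Most points lie right of 0 and most diamonds lie left of their points, while the diamonds of Oas2 (3.72) and Trim30a (0.81) stay far from 0.

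Levels per transcript length differed widely between the genes. On the deposited TPM scale 35 of the 39 had a mean of at least 1 TPM, 26 of at least 10 TPM and 7 of at least 100 TPM. The 3 most abundant, Ifitm2, Ifitm3 and Bst2, had means over the 6 libraries of 2990, 1769 and 503 TPM, and all 3 act at membranes. The 39 genes summed to 6495, 6202 and 6739 TPM in WT replicates 1, 2 and 3 and to 6689, 7336 and 6906 TPM in KO replicates 1, 2 and 3. Without those 3 genes the sums were 1339, 1275 and 1363 TPM in WT and 1407, 1888 and 1517 TPM in KO. In these sums without the 3 genes all KO libraries lay above all WT libraries. The sums over all 39 genes overlapped, with KO replicate 1 (6689 TPM) below WT replicate 3 (6739 TPM). KO replicate 2 stood highest in both. Irf1 alone gave 206, 214 and 220 TPM in WT and 264, 425 and 290 TPM in KO. Thus 1 gene weighed heavily on the separation of the sums without the 3 genes. The least abundant were Oas2, Oasl1, Oas3 and Mx1, with means of 0.696, 0.453, 0.430 and 0.350 TPM.

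**Figure D3:**
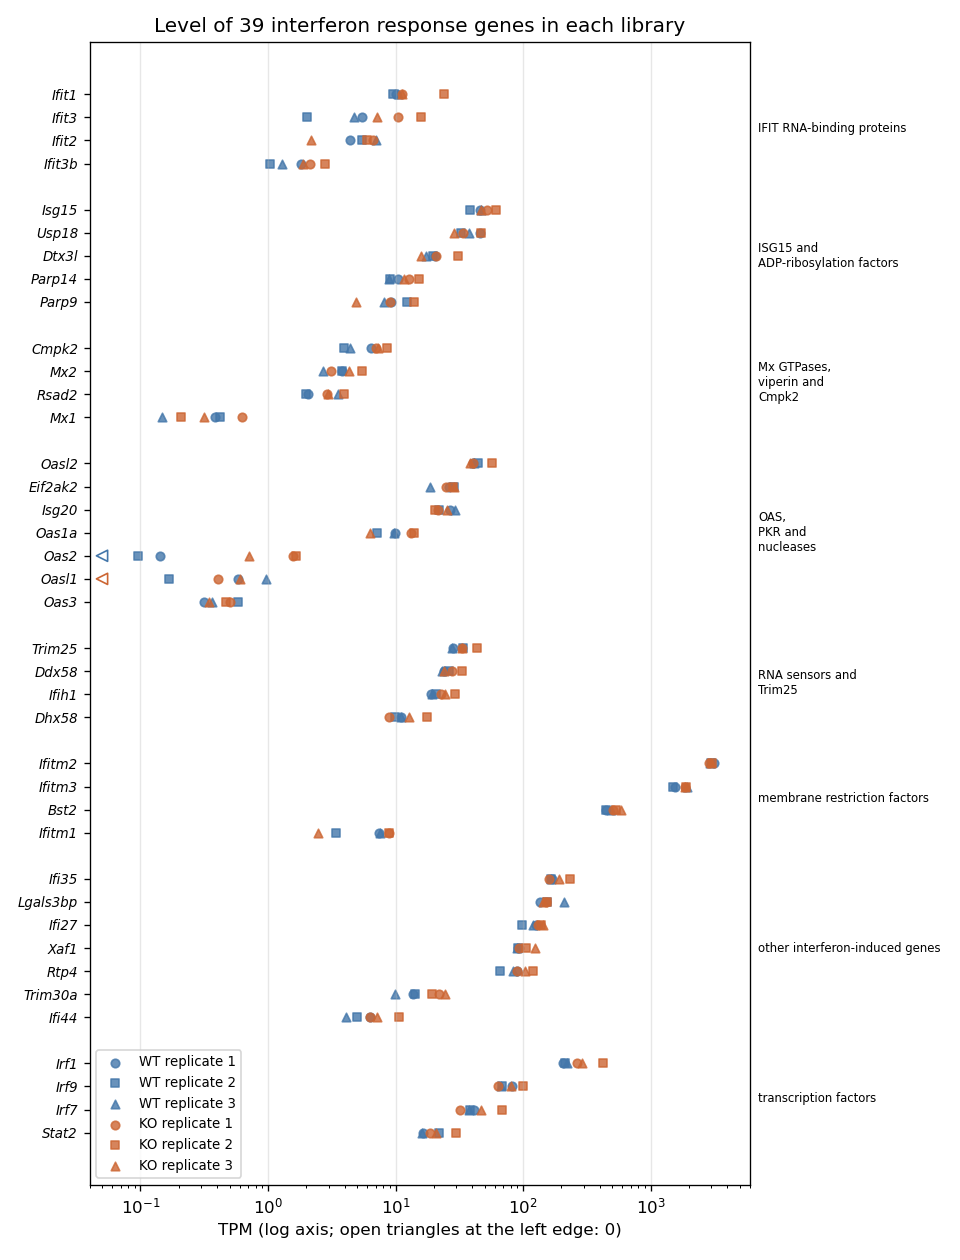
Each point is the deposited TPM of a gene in 1 library on a log axis, with genes grouped by role, colour for the label and shape for the replicate; open triangles at the left edge mark values of 0. Ifitm2, Ifitm3 and Bst2 lie above all other genes in every library, and the square of KO replicate 2 is the rightmost point of many genes.

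The IFIT proteins bind RNA whose cap looks foreign and block its translation, and their genes lie side by side on mm10 chromosome 19. Ifit3 (34583531 to 34588731, plus strand), an adaptor that strengthens RNA binding by Ifit1, had 5.93, 2.23 and 5.60 CPM in WT and 10.6, 17.0 and 7.79 CPM in KO, in replicate order as in all that follows. All KO values lay above all WT values, with KO replicate 2 highest and WT replicate 2 lowest. Its log2 fold change was 1.36 (SE 0.44 and adjusted p = 0.324 by edgeR; DESeq2 adjusted p = 0.07), and 1.0 without KO replicate 2. Its near copy Ifit3b (34607970 to 34613401) had 2.07, 1.29 and 1.64 CPM in WT and 2.37, 3.20 and 2.17 CPM in KO, again without overlap, with a log2 fold change of 0.63 (SE 0.38 and adjusted p = 0.509 by edgeR). Since 61.8% of the 31-base words in Ifit3 transcripts also occur in Ifit3b, the split of reads between this pair is uncertain. Their sum does not depend on that split: it was 8.0, 3.52 and 7.24 CPM in WT and 13.0, 20.2 and 9.95 CPM in KO, also without overlap.

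Ifit1 (34640871 to 34650009), the cap-binding member, had 15.2, 14.4 and 17.2 CPM in WT and 16.0, 35.9 and 16.8 CPM in KO. Only KO replicate 2 stood apart: the log2 fold change was 0.55 (SE 0.32, unadjusted p = 0.125 by edgeR) with it and 0.07 without it. Ifit2, which binds AU-rich RNA, ran from 5.08 CPM in KO replicate 3 to 18.1 CPM in WT replicate 3, with a log2 fold change of -0.30 (SE 0.41), or -0.48 without KO replicate 2. Thus 3 of the 4 IFIT genes had a positive log2 fold change, and the KO libraries that stood highest or lowest were not the same in all 4.

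The membrane restriction factors were the most abundant group, and all 4 overlapped between the labels. Ifitm2, a small membrane protein that hinders fusion of virus with the host membrane, had 750, 705 and 762 CPM in WT and 649, 709 and 701 CPM in KO, with a log2 fold change of -0.11 (SE 0.11 and adjusted p = 0.699 by edgeR). Its groups overlapped, and 55.5% of its 31-base words occur in other genes, 38.1% in the overlapping gene model Gm45717. Ifitm3, its paralogue, ranged from 373 to 529 CPM, both in WT libraries, with a log2 fold change of 0.09 (SE 0.15). Bst2, also called tetherin, which holds budding virions at the cell surface, had 148, 146 and 174 CPM in WT and 157, 175 and 191 CPM in KO, with overlap and a log2 fold change of 0.16 (SE 0.13 and adjusted p = 0.609 by edgeR). Ifitm1 was sparse, from 0.745 CPM in KO replicate 3 to 2.54 CPM in KO replicate 2.

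In the group around ISG15, a ubiquitin-like protein that is attached to other proteins, 1 of 5 genes (20.0%, against 20.3% of all genes) was without overlap between the labels. Parp14, a mono-ADP-ribosyltransferase (mm10 chromosome 16, 35832874 to 35871544, minus strand), had 47.9, 41.5 and 44.2 CPM in WT and 55.7, 69.4 and 53.1 CPM in KO. All KO values were above all WT values, and the log2 fold change was 0.42 (SE 0.14 and adjusted p = 0.326 by edgeR), or 0.29 without KO replicate 2. Isg15 (chromosome 4, 156199424 to 156200818, minus strand) had 14.8, 12.2 and 16.3 CPM in WT and 15.7, 19.5 and 15.0 CPM in KO, overlapping, with a log2 fold change of 0.21 (SE 0.19 and adjusted p = 0.65 by edgeR) and 0.09 without KO replicate 2.

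Usp18, which removes ISG15 from proteins and shuts off the interferon receptor, ranged from 31.1 to 44.3 CPM in WT and from 27.3 to 44.4 CPM in KO, with a log2 fold change of -0.17 (SE 0.22), or -0.41 without KO replicate 2. Parp9 and Dtx3l form an enzyme pair and lie head to head on chromosome 16, overlapping by 682 bases on opposite strands. Parp9 had a log2 fold change of -0.15 (SE 0.34), or -0.59 without KO replicate 2, and Dtx3l of 0.16 (SE 0.23), or -0.16 without it. In both, KO replicate 2 was the highest library (27.0 and 94.3 CPM) and KO replicate 3 the lowest (10.2 and 48.9 CPM), so the spread among the KO libraries covered that of the WT libraries. All 5 genes of this group had their highest value in KO replicate 2.

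Oas2 showed the largest log2 fold change of the 39 genes. It is an oligoadenylate synthetase, an enzyme that senses double-stranded RNA and makes the messenger that activates RNase L, and lies beside Oas3 on mm10 chromosome 5 (120730333 to 120749853, minus strand). Its counts were 11, 7 and 0 in the WT libraries and 101, 113 and 48 in the KO libraries. In CPM this was 0.335, 0.237 and 0 in WT and 3.42, 3.73 and 1.63 in KO, a mean of 0.191 ± 0.172 (SD, n = 3) against 2.92 ± 1.14. Every KO library lay above every WT library, and the ratio of the means was 15.3.

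The log2 fold change of Oas2 was 3.94 (SE 1.0, unadjusted p = 0.00506, adjusted p = 0.282 by edgeR), 3.72 without KO replicate 2, and between 3.33 and 4.64 over the 6 fits that left out 1 library each. DESeq2 called it and edgeR did not; its adjusted p ran from 0.00169 to 0.607 over the alternatives that tested it, which leave out the 3 with a filter on TPM or on a mean count of 50. The level stayed low in KO, at 1.58, 1.65 and 0.708 TPM. None of its 31-base words occur in another gene. The gene model Gm43068 overlaps it by 1273 bases on the other strand; whether the counting used strand is not stated in the sources.

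Its relatives had fitted changes nearer to 0 or negative, all with overlapping groups; the difference from Oas2 was not tested. Oas3, next to it, had a log2 fold change of 0.00 (SE 0.43) at 0.882 to 1.66 CPM. Oas1a had 0.25 (SE 0.32; 0.07 without KO replicate 2) at 5.35 to 11 CPM, and 68.7% of its 31-base words occur in Oas1g as well, so its level is uncertain. Oasl1, an Oas-like protein, had 0 counts in KO replicate 2 and at most 0.849 CPM elsewhere, with a log2 fold change of -0.83 (SE 1.21). Oasl2, the most abundant of the group, had 62.9, 67.3 and 68.7 CPM in WT and 59.1, 87.2 and 58.6 CPM in KO, overlapping, with a log2 fold change of 0.04 (SE 0.17) that turned to -0.17 without KO replicate 2.

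The other nucleic-acid effectors overlapped between the labels too. Eif2ak2, the kinase PKR that halts translation on binding double-stranded RNA, ranged from 50.5 to 70.5 CPM in WT and from 57.7 to 69.9 CPM in KO, with a log2 fold change of 0.08 (SE 0.15). Isg20, an RNA exonuclease, had 12.7, 10.8 and 15.1 CPM in WT and 10.2, 9.61 and 11.8 CPM in KO. It leaned the other way, with overlapping groups and a log2 fold change of -0.29 (SE 0.20, unadjusted p = 0.189 by edgeR).

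**Figure D4:**
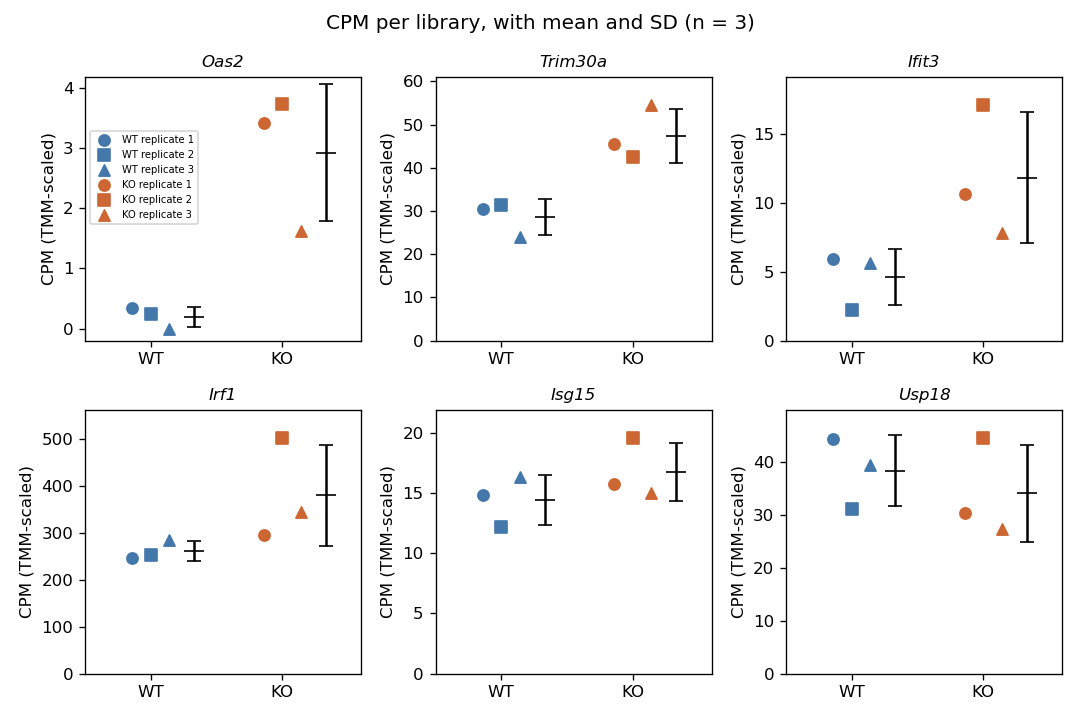
Each panel plots 1 gene in CPM on an axis from 0 (from just below 0 for Oas2). A point marks each library (colour for the label, shape for the replicate), with the mean and 1 SD (n = 3) beside them. Oas2, Trim30a, Ifit3 and Irf1 have no overlap between the labels, with KO replicate 2 apart from the rest in Irf1, while Isg15 and Usp18 overlap.

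Cmpk2 and Rsad2 are neighbours on mm10 chromosome 12, and both act on nucleotides against viruses. Cmpk2, a mitochondrial nucleotide kinase (26469204 to 26479837, plus strand), had 11.8, 7.25 and 8.88 CPM in WT and 12.2, 15.5 and 13.4 CPM in KO. The groups did not overlap, but WT replicate 1 and KO replicate 1 almost met; the log2 fold change was 0.56 (SE 0.23 and adjusted p = 0.382 by edgeR) and 0.46 without KO replicate 2. Rsad2, the enzyme viperin (26442746 to 26456452, minus strand), had 4.63, 4.37 and 8.62 CPM in WT and 6.09, 8.72 and 6.60 CPM in KO, overlapping, with a log2 fold change of 0.28 (SE 0.33), or 0.11 without KO replicate 2. The Mx GTPases, which trap viral nucleocapsids, were low: Mx1 stayed between 0.265 and 0.913 CPM, and Mx2, annotated as a polymorphic pseudogene, between 3.99 and 7.43 CPM, both with overlap. All 4 log2 fold changes of this group were positive.

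Irf1 was the most abundant of the transcription factors and the only one without overlap between the labels. It is induced by interferon gamma through the gamma-activated site and by type I interferon, and lies on mm10 chromosome 11 (53770014 to 53778374, plus strand). Its levels were 245, 253 and 284 CPM in WT and 295, 500 and 343 CPM in KO, a mean of 260 ± 20.7 (SD, n = 3) against 379 ± 107. The log2 fold change was 0.54 (SE 0.20, unadjusted p = 0.0294, adjusted p = 0.352 by edgeR). KO replicate 2 set much of it: without that library the value was 0.29.

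The 3 other factors are the DNA-binding partners of the pathway, and KO replicate 2 was the highest library in each. Stat2, a receptor-activated factor, had 42.9, 57.2 and 45.8 CPM in WT and 46.1, 76.9 and 53.7 CPM in KO, with a log2 fold change of 0.28 (SE 0.21, unadjusted p = 0.227 by edgeR) and 0.04 without KO replicate 2. Irf9, the DNA-binding subunit of the complex with Stat2, ran from 80.9 CPM in KO replicate 1 to 133 CPM in KO replicate 2. Irf7, which amplifies interferon production, ran from 29.9 CPM in KO replicate 1 to 67.2 CPM in KO replicate 2. The extremes of both genes thus lay within the KO libraries, and their log2 fold changes went from 0.09 to -0.10 (Irf9) and from 0.25 to -0.08 (Irf7) when KO replicate 2 was left out.

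KO replicate 2 was also the highest library in the cytoplasmic RNA sensors and Trim25. Ifih1, the sensor MDA5 of long double-stranded RNA, had 51.9, 59.1 and 55.0 CPM in WT and 57.8, 79.8 and 63.3 CPM in KO. KO replicate 1 lay within the WT range, and the log2 fold change was 0.27 (SE 0.14 and adjusted p = 0.453 by edgeR) and 0.13 without KO replicate 2. Trim25, a ubiquitin ligase that acts on RIG-I, had 93.5, 110 and 100 CPM in WT and 104, 142 and 109 CPM in KO, with a log2 fold change of 0.23 (SE 0.15) and 0.07 without KO replicate 2. Ddx58, which is RIG-I itself, and Dhx58, the related regulator LGP2, had small log2 fold changes, 0.13 (SE 0.14) for the former and 0.24 (SE 0.27) for the latter, which were -0.01 and -0.05 without that library. The lowest library was WT replicate 1 for Ifih1 and Trim25, KO replicate 3 for Ddx58 and KO replicate 1 for Dhx58.

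Trim30a had the smallest unadjusted p of the 39 genes and did not follow KO replicate 2. It is a ubiquitin ligase of the TRIM family that dampens NF-kappaB signalling (mm10 chromosome 7, 104409025 to 104465193, minus strand). Its levels were 30.4, 31.5 and 23.9 CPM in WT and 45.6, 42.4 and 54.4 CPM in KO, a mean of 28.6 ± 4.07 (SD, n = 3) against 47.5 ± 6.25. All KO values lay above all WT values, KO replicate 3 was the highest, and KO replicate 2 was the lowest of the KO libraries. The log2 fold change was 0.73 (SE 0.16, unadjusted p = 0.00216, adjusted p = 0.243 by edgeR) and ran from 0.62 to 0.81 when each library was left out in turn. DESeq2 called it; over all alternatives its adjusted p ran from 0.0117 to 0.61.

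Of the 31-base words in Trim30a transcripts, 11.9% occur in other genes, 8.53% in Trim30d, a related gene beside it on the same strand (104470014 to 104507849), so their counts are partly uncertain. Trim30d is not among the 39 and was chosen after its values were seen: it had 4.11, 3.15 and 3.74 CPM in WT and 10.1, 7.59 and 9.95 CPM in KO, with a log2 fold change of 1.33 (SE 0.25 and adjusted p = 0.23 by edgeR; DESeq2 adjusted p = 0.000572). Both neighbours were thus higher in every KO library than in any WT library.

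The remaining interferon-induced genes overlapped between the labels. Ifi44, of unsettled function, had 10.6, 8.36 and 7.50 CPM in WT and 10.0, 17.8 and 11.9 CPM in KO. KO replicate 1 lay below WT replicate 1, and the log2 fold change was 0.59 (SE 0.27 and adjusted p = 0.411 by edgeR) and 0.32 without KO replicate 2. Ifi35, which partners with Nmi, was the most abundant of the group per length, at a mean of 180 TPM, and had 118, 114 and 126 CPM in WT and 105, 160 and 133 CPM in KO. Its extremes were both KO libraries, with a log2 fold change of 0.16 (SE 0.16), or about 0 without KO replicate 2. Rtp4, a chaperone of membrane receptors, had 0.31 (SE 0.17; 0.19 without KO replicate 2), Ifi27 had 0.19 (SE 0.14) and Xaf1, an inhibitor of the apoptosis blocker XIAP, had 0.15 (SE 0.13) as log2 fold changes. Lgals3bp, a secreted glycoprotein, was the only negative value among these 7 genes, -0.25 (SE 0.19), with 273 CPM in WT replicate 3 above all other libraries, which lay between 164 and 186 CPM.

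The other genes of the pathway were taken from 5 lists, and none of their members passed the adjusted threshold of edgeR. Of 16 interferon genes, 12 had 0 counts in all 6 libraries and none had enough counts to be tested. Their summed counts were 9, 2 and 5 in WT and 7, 0 and 5 in KO. Without Ifnz the sums were 9, 0 and 0 in WT and 0 in every KO library. KO replicate 2 held no read of any of the 16, which allows up to 0.0991 CPM of each by counting error.

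Of the 10 receptor and JAK-STAT genes 9 were tested, 6 with a positive log2 fold change. Ifnar1, the type I receptor subunit, had 361, 377 and 297 CPM in WT and 337, 366 and 349 CPM in KO, with a log2 fold change of 0.02 (SE 0.13). Among these 9 genes 1 was higher and 1 lower at an unadjusted p under 0.05 by edgeR, against 6.88% and 5.77% of all genes tested. They were Ifngr2 (0.41, SE 0.15) and Ifngr1 (-0.71, SE 0.24), the subunits of the interferon gamma receptor. Groups did not overlap in 2 that were higher and 1 that was lower (33.3% in all, against 20.3% of all genes). Ifngr1 had 491, 563 and 893 CPM in WT and 424, 445 and 321 CPM in KO, without overlap (adjusted p = 0.334 by edgeR).

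Of 15 upstream sensing genes 13 were tested, and 5 had a positive and 8 a negative log2 fold change. Of these, 0 had an unadjusted p under 0.05 by edgeR, against 12.6% of all genes tested. Irf3, the factor that starts interferon transcription, had 0.08 (SE 0.12), and Mavs, the adaptor of RIG-I and MDA5, had -0.21 (SE 0.15). Irf8, a factor of myeloid cells, had the lowest unadjusted p of this list (0.0745 by edgeR), at 0.730, 0.677 and 2.25 CPM in WT and 2.94, 2.34 and 2.81 CPM in KO. Of 10 negative regulators 9 were tested, 5 of them positive and 0 with an unadjusted p under 0.05 by edgeR (against the same 12.6%). The most abundant were the repressor Irf2, with a log2 fold change of 0.08 (SE 0.17), and the SUMO ligase Pias1, with -0.12 (SE 0.13). Adar, which edits double-stranded RNA, had the lowest unadjusted p (0.0646 by edgeR), with 95.6, 101 and 87.5 CPM in WT and 104, 134 and 108 CPM in KO. DESeq2 called 0 of the receptor, sensing and negative regulator genes as well, against 2.78% of all genes.

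Among 33 further interferon-stimulated genes in the tables, KO replicate 2 was the highest library in 17, against 21.0% of all genes tested. Of the 33, 30 were tested, with 18 positive and 12 negative log2 fold changes. Their median was 0.20, and 0.06 without KO replicate 2. At an unadjusted p under 0.05 by edgeR 5 were higher and 2 lower (23.3% in all, against 12.6% of all genes), and DESeq2 called 1 in each direction (against 1.47% of all genes higher and 1.31% lower). Groups did not overlap in 9 that were higher (30%, against 10.9% of all genes) and 2 that were lower (6.67%, against 9.42%). Helz2, a helicase that coactivates nuclear receptors, had 124, 135 and 124 CPM in WT and 167, 238 and 220 CPM in KO, with a log2 fold change of 0.70 (SE 0.15 and adjusted p = 0.24 by edgeR; DESeq2 adjusted p = 0.00409). Samd9l, a restriction factor of poxviruses, went the other way, with 97.0, 98.3 and 96.2 CPM in WT and 63.5, 70.9 and 52.7 CPM in KO and a log2 fold change of -0.64 (SE 0.13 and adjusted p = 0.24 by edgeR; DESeq2 adjusted p = 0.00269). The most abundant were Slfn5, with a log2 fold change of 0.47 (SE 0.17), and Shisa5, with -0.12 (SE 0.17). The groups of Helz2 and of Samd9l did not overlap.

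Markers of other cells that respond to interferon were examined in the same libraries, since in bulk RNA fewer cells of a type and less RNA per cell cannot be told apart. Dendritic cell markers (6 genes) summed to 142 to 159 CPM in WT and 157 to 255 CPM in KO, with the highest value in KO replicate 2. Clec9a (145 CPM there) and Zbtb46 (106 CPM there) made up nearly all of it, while Flt3 was at most 0.440 CPM and Itgax at 0 in every library. Macrophage and monocyte markers (10 genes) summed to 24.0 to 432 CPM in WT and 32.3 to 190 CPM in KO, with 132 CPM in KO replicate 2. Lyz2, which alveolar type 2 cells also express, gave 423 of the 432 CPM in WT replicate 1 and 122 of the 132 CPM in KO replicate 2, Adgre1 was at most 0.578 CPM, and Csf1r and Marco were at 0 in every library. Plasmacytoid dendritic cell markers without Bst2 (5 genes) summed to 534 to 591 CPM in WT and 615 to 667 CPM in KO, without overlap, but Tcf4 alone made up 532 to 589 CPM and 611 to 663 CPM of these. Siglech, the defining marker, lay at 0.643 to 1.10 CPM in WT and 0.693 to 1.02 CPM in KO, and Klk1 was at 0 in every library. Fibroblast markers (8 genes) summed to 145 to 204 CPM in WT and 299 to 443 CPM in KO, without overlap, with KO replicate 1 the highest. Col1a1, Col1a2 and Col3a1 made up most of it (127, 144 and 144 CPM in KO replicate 1). These and the sparser Dcn and Npnt did not overlap between the labels, while Pdgfra, Tcf21 and Lum did. Pdgfra lay at 6.84 to 11.3 CPM in WT and 6.63 to 16.9 CPM in KO, and Tcf21 at 2.57 to 5.28 CPM in WT and 0.440 to 4.79 CPM in KO. Alveolar type 2 markers (7 genes) ran from 329 CPM in WT replicate 2 to 9282 CPM in WT replicate 1, with 2333 CPM in KO replicate 2. The part of these cells in the values of the 39 genes was not tested.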

How the data were processed

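Total RNA of sorted lung endothelial cells (10 ng per library) was amplified with a SMARTer kit and read as 100 bp pairs, per the labels' protocols. The authors deposited estimated counts per gene, in whole numbers and not normalized, and TPM values that they computed, whose columns sum to 875864 to 885609. The submitters' processing notes name kallisto and mm10; no source used here states its version, the annotation or the step from transcripts to genes. Gene symbols and positions came from GENCODE M21 on mm10, which named 24298 of 24520 identifiers. Groups and replicate numbers came from the sample titles.

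The estimated counts were tested with edgeR 4.0.16 (limma 3.58.1, R 4.3.3): TMM factors, filterByExpr by group, quasi-likelihood F test, Benjamini-Hochberg adjustment over 14667 genes at 0.05, no covariate. Rounding changed 0 counts. Each SE is the size of the log2 fold change over the square root of F. DESeq2 1.42.0 gave an adjusted p for 14853 genes. CPM use the effective library sizes of this fit. Shared sequence was measured as 31-base words of GENCODE transcripts. All pairs of libraries differed by more than sampling noise (chi-square over its degrees of freedom, 44.8 to 183), so none was merged; this does not show that they came from separate animals or RNA. The fit was checked on simulated data.

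The 39 genes and the lists were chosen with earlier results of these data known, so no test over a list was made. Values in every library are given for 19 genes: those without overlap, the most abundant per length of each role group, and the 2 lowest p of each role group; Of the other pathway genes, the 2 most abundant and the 1 with the lowest p of each list are named; Helz2, Ifngr2 and Trim30d were named after their values were seen. Alternatives were DESeq2, RLE and upper-quartile factors, other filters, limma on TPM with a pseudocount of 1 or 0.1, a sex covariate, the replicate number as a block, and each library left out.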

Additional observations from a re-analysis of the deposited data

How the results depend on the processing

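Of the 16 alternatives 3, those with a filter on TPM or on a mean count of 50, tested 35 of the 39 genes and left out Oas2, Oas3, Oasl1 and Mx1. The median log2 fold change of the genes tested was positive throughout, between 0.07 and 0.28 with 1 library left out and between 0.18 and 0.25 otherwise. The count of positive values was 23 to 34 with 1 library left out, lowest without KO replicate 2, and otherwise 29 of 35 in those 3 and 31 to 32 of 39 in the rest. By edgeR and limma 0 of the genes tested passed the adjusted threshold under any alternative; DESeq2 called 2. The number of all genes called, 5 by edgeR, was 413 by DESeq2, 3 by limma on log2(TPM + 1) without a filter, 2 with a sex covariate, and 1 to 4 with 1 library left out (1 without WT replicate 1 or WT replicate 3). The cause was not tested. The sign of 15 of the 39 genes changed under some alternative and that of 24 under none; no sign change had an unadjusted p below 0.147 by its own fit.

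Same-numbered libraries had correlations of deviations of 0.28, -0.05 and -0.17 for numbers 1, 2 and 3. Differently numbered libraries ranged from -0.28 (WT replicate 2 with KO replicate 1) to 0.35 (WT replicate 2 with KO replicate 3). With 3 libraries per label these values do not decide whether the replicate numbers pair the samples. With the replicate number as a block, 0 genes of the whole table and 0 of the 39 passed the adjusted threshold, the median of the 39 was 0.18, and 31 were positive. At the depth of these libraries Oas2, Oas3, Oasl1 and Mx1 rest on few counts. The largest SE of the 39 were those of Oasl1 (1.21), Oas2 (1.0), Mx1 (0.61) and Ifitm1 (0.58), while that of Oas3 was 0.43.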
